A study of Mus musculus with 12 samples.

Results

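The 10 genes described here mark motor neurons or serve acetylcholine transmission. They are the transcription factor genes Isl1, Isl2, Mnx1, Lhx3 and Lhx4, the cholinergic genes Chat, Slc18a3 and Slc5a7, and Prph and Chodl, whose products are enriched in motor neurons. They were taken by name from the 18193 genes with at least 1 probe set that the array annotation assigns to a single gene symbol. Each gene was read by its brightest probe set, the group of short probes that reads a transcript, and its other probe sets served as a check. Of the 10 genes, 7 were bright enough on average over all samples to be among the 12600 genes tested. Mnx1, Lhx4 and Chat lay below the filter on dim probe sets, which removed means under the 40th percentile.

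Motor neurons of the brainstem and spinal cord send axons out of the central nervous system to muscle and release acetylcholine there. Their identity is set in the embryo by homeodomain transcription factors, among which Isl1 and Lhx3 act together in a complex that switches on genes of acetylcholine synthesis and packaging. Several of these factors are kept in some motor neurons after birth and lost from others. Acetylcholine is made by the enzyme that Chat encodes, loaded into vesicles by the transporter that Slc18a3 encodes, and recovered as choline through the transporter that Slc5a7 encodes.

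Total RNA was read on Affymetrix arrays in NR3B knockout mice at postnatal day 5 (P5KO), wild-type mice at postnatal day 5 (P5WT), NR3B knockout mice at postnatal day 0 (P0KO) and wild-type mice at postnatal day 0 (P0WT), with 3 samples in each group. NR3B is the protein name of the NMDA receptor subunit that Grin3b encodes, a subunit enriched in motor neurons of the brainstem and spinal cord. The tissue is labelled hindbrain and spinal cord together with brain in one field and only brain in another. The sources used here do not give how much of each region went into a sample, the strain, the deleted stretch of the gene or the number of animals behind a sample, so a p-value measures how far these samples spread, which may be technical.

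Values are the deposited probe set signals on a linear scale, and the arrays' median signals ranged from 607 to 737. The Grin3b probe set read 48.5, 39.7 and 45.4 in P5KO against 273, 168 and 155 in P5WT, and 31.4, 38.8 and 96.9 in P0KO against 353, 198 and 304 in P0WT. Every knockout sample lay below every wild-type sample of its age, although the probe set is dim throughout. The median within-group standard deviation (SD) of a tested gene was 0.13 in P5KO, 0.12 in P5WT, 0.21 in P0KO and 0.27 in P0WT on the log2 scale. In a fit that weights arrays by their spread, P0WT sample 2 had the lowest weight of the 12, at 0.19. P0WT sample 1 followed at 0.36 and P0KO sample 1 at 0.37, against up to 2.44. In P0WT sample 1 the 3′ probe set of the 18S ribosomal control read 7728, while the 11 remaining samples read 48911 to 110512. The 5′ probe set read 6471 there, against 49746 to 104387 in the others. The middle probe set read 3618, against 22789 to 61945, with P0WT samples 2 and 3 the next lowest. Xist, the transcript of the inactive X chromosome, read above 2000 in 1 of 6 P5 samples and 4 of 6 P0 samples, so sex was not balanced between ages. Of the genes that mark position along the nervous system, 23 of 24 Hox genes with a probe set passed the filter, against 4 of 10 forebrain genes. The 4 forebrain genes that passed were Emx2, Lhx2, Neurod2 and Neurod6, at percentiles 44.9, 59.6, 74.8 and 80.2 of mean brightness. The other 6 lay between percentile 1.7 (Dlx1) and 30.8 (Emx1).

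Promoter windows are shown for the 3 genes that changed with age in both genotypes and for Chat, because Slc18a3 lies within the Chat locus. Each window runs from 250 bases before to 50 bases after the RefSeq start on the gene's strand, 5′ to 3′, in build GRCm38.p6, and RefSeq windows were found for 10 of the 10 genes. Capitals mark TAAT, the core read by homeodomain factors, on either strand (ATTA on the other), and TATAAA on either strand. The Isl1 window lies at chr13:116309639-116309938 on the minus strand, Slc18a3 at chr14:32464801-32465100 minus, Chat at chr14:32465860-32466159 minus and Prph at chr15:99054924-99055223 plus.
Isl1: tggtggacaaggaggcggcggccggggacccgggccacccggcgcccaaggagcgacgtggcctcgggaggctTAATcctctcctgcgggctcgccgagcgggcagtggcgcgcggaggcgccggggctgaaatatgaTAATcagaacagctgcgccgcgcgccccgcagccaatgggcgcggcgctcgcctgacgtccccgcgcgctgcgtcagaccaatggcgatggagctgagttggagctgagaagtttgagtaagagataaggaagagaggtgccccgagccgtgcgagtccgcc
Slc18a3: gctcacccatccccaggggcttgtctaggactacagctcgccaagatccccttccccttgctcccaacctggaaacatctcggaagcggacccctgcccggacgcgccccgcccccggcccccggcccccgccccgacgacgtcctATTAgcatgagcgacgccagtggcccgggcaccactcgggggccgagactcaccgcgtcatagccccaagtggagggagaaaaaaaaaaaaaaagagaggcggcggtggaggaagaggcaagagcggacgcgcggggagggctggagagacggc
Chat: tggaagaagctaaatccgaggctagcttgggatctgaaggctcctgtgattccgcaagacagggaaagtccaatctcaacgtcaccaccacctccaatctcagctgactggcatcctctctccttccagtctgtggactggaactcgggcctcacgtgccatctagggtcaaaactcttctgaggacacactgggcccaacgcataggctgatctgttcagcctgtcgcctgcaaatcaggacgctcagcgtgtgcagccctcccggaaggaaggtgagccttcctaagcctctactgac
Prph: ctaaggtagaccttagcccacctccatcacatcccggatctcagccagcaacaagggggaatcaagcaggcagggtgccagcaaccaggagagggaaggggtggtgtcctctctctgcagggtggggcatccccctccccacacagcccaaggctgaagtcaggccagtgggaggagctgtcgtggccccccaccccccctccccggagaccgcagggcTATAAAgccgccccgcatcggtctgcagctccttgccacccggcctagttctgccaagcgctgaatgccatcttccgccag
The Slc18a3 start lies 1059 bases downstream of the Chat start on the same strand, so the vesicular transporter gene sits inside the Chat transcription unit. The Isl1 window holds 2 matches to TAAT and the Slc18a3 window 1, while the Chat and Prph windows hold 0. The Prph window holds 1 TATAAA. Of all 32851 promoter windows of the same length, 58.0% hold TAAT and 13.6% hold TATAAA. A second motif, CANNTG, the E-box read by basic helix-loop-helix factors, was found 1 time in the Isl1 and Slc18a3 windows and 2 times in the Chat window, and 72.3% of all windows hold it. A match is a description of the letters in the window and says nothing of binding.

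The first comparison asked how these genes differed between P5 and P0 within each genotype. In knockout tissue 4 of the 7 tested genes were lower at P5 (Isl1, Prph, Lhx3 and Slc18a3), against 4.95% of all tested genes. In wild-type tissue 3 of the 7 were lower (Isl1, Prph and Slc18a3), against 8.52% of all tested genes. The count over all genes in wild type, 2438 in both directions, was 1348 without P0WT sample 1, 4825 without sample 2 and 1444 without sample 3, with 3, 2 and 2 of the 7 genes called in that order. None of the 7 was higher at P5 in either genotype, against 5.5% of all tested genes in knockout and 10.8% in wild type, and by limma at an unadjusted p under 0.05 the 7 genes gave 5 differences in each genotype, all of them lower at P5, against 3161 of 12600 tested genes in knockout and 4550 in wild type in either direction. The estimate lay below 0 for 7 of 7 genes in each genotype, with a median log2 difference of -0.97 in knockout and -0.65 in wild type, against -0.03 and 0.03 over all tested genes. Without regard to the test, 5 of the 7 had every P5 sample below every P0 sample in knockout, as did 18.8% of all tested genes, and 5 of 7 in wild type, as did 17% of all tested genes. A gene was called changed where limma's linear model gave it an adjusted p under 0.05, with Benjamini-Hochberg adjustment across the 12600 tested genes, and every adjusted p below comes from that model. In RNA from whole tissue, fewer cells of a type and less RNA per cell cannot be told apart.

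Isl1 encodes a LIM-homeodomain factor needed for motor neurons to form, and it is also made in sensory ganglia, some dorsal interneurons, the striatum and the pituitary. Its signal was 514, 327 and 597 in P5KO, 868, 646 and 790.4 in P5WT, 1835, 2363 and 2581 in P0KO, and 1811, 1795 and 1837 in P0WT. All 6 P5 samples were lower than all 6 P0 samples, the P0WT samples were close together, and the 3 P5KO samples were the lowest of the 12. The P5 minus P0 difference on the log2(signal + 16) scale was -2.23 ± 0.23 (standard error, SE) in knockout, a 4.70-fold lower signal with an adjusted p of 5.18e-05. In wild type it was -1.25 (95% interval -1.73 to -0.76), a 2.37-fold lower signal with an adjusted p of 0.00258. The call held in 21 of 21 alternative settings in each genotype. A second Isl1 probe set read 447, 442 and 384 in P5KO, 474, 554 and 376 in P5WT, 990.3, 891 and 884 in P0KO, and 719.7, 767 and 1132 in P0WT. Put in place of the brightest, it was lower at P5 by a smaller amount, with a log2 difference of -1.11 in knockout (adjusted p = 0.0119) and -0.87 in wild type (adjusted p = 0.03). In a limma fit of all probe sets without the filter, its adjusted p was 0.02 in knockout and 0.0501 in wild type. The wild-type pass of this probe set therefore depended on the fit.

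Isl2, the close relative of Isl1 found in most somatic motor neurons, read 665, 739.9 and 567 in P5KO, 622, 332 and 551 in P5WT, 894, 1039 and 358 in P0KO, and 479, 733 and 1157 in P0WT. The groups overlapped at both ages, and the P0 samples ranged widely. The P5 minus P0 difference was -0.12 ± 0.38 (SE) in knockout (adjusted p = 0.886) and -0.60 in wild type (adjusted p = 0.265), and neither passed the threshold. With arrays weighted by their quality the wild-type difference was -1.002 and did pass (adjusted p = 0.0174), as did 6005 of 12600 tested genes. The P0WT arrays, in sample order, had weights of 0.36, 0.19 and 2.44. The P0WT mean therefore rested mostly on the last, which had the highest Isl2 signal of all samples (1157).

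Lhx3 marks motor neurons of the medial column and V2 interneurons, and it also acts in the pituitary. Its signal was 398, 281 and 453 in P5KO, 504, 313 and 421 in P5WT, 858, 685 and 783 in P0KO, and 686, 855 and 544 in P0WT. P5 samples lay below P0 samples in both genotypes. The difference was -1.04 ± 0.27 (SE) in knockout, 2.05-fold lower (adjusted p = 0.0271), and -0.74 in wild type, which did not pass (adjusted p = 0.0692). The knockout call was lost in 5 of 21 settings: without P0KO sample 1 (adjusted p = 0.0689), P0KO sample 3 (0.0869), P5KO sample 1 (0.0644) or P5KO sample 2 (0.116), and with the other, dimmer probe set (-1.55, adjusted p = 0.197). The difference between the genotypes in the age change, the interaction, was -0.29 ± 0.38 (SE, adjusted p = 0.827), so Lhx3 was not shown to behave differently in knockout tissue.

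Mnx1 (HB9), which holds motor neurons to their identity in the embryo, and Lhx4, which acts beside Lhx3, were both dim. Mnx1 lay at percentile 19.9 of mean brightness and read 111, 52.6 and 236 in P5KO, 259, 148 and 36.3 in P5WT, 208, 319 and 217 in P0KO, and 118, 345 and 194 in P0WT. Lhx4 lay at percentile 36.7 and read 118, 697 and 643 in P5KO, 466, 91.1 and 54.5 in P5WT, 495, 441 and 613 in P0KO, and 570.0, 775 and 344 in P0WT. In both genes single P5 samples differed several-fold within a group, and the groups overlapped in every comparison. In the same model without the filter, the P5 minus P0 difference of Mnx1 was -0.96 in knockout (adjusted p = 0.448) and -0.73 in wild type (adjusted p = 0.494). For Lhx4 it was -0.41 in knockout (adjusted p = 0.821) and -1.88 ± 0.70 (SE) in wild type (adjusted p = 0.0974). Without P5WT sample 1, the only bright one of its group, the wild-type Lhx4 difference was -2.71 and passed (adjusted p = 0.027). The other Lhx4 probe set, at percentile 27.7, did not single out that sample and read 180, 466 and 115 in P5WT. With it in place the difference was -0.68 in wild type (adjusted p = 0.47) and -0.44 in knockout (0.743).

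Slc18a3 encodes the vesicular acetylcholine transporter. It read 718, 875 and 969 in P5KO, 1034, 1071 and 1048 in P5WT, 1704, 1261 and 2061 in P0KO, and 1851, 1629 and 1443 in P0WT. All P5 samples lay below all P0 samples, and the P5KO samples lay below the P5WT samples. Between ages it differed by -0.97 ± 0.20 (SE) in knockout, 1.95-fold lower (adjusted p = 0.00838), and this call held in 20 of 20 alternative settings. In wild type it was -0.64 (95% interval -1.07 to -0.20, adjusted p = 0.0423). That call lay close to the threshold and was lost in 11 of 20 settings, with adjusted p between 0.0264 and 0.302. It was lost without any single P0WT sample (adjusted p = 0.133 without sample 1, 0.0533 without 2 and 0.0538 without 3) or any single P5WT sample (0.115 without sample 1, 0.0997 without 2 and 0.0989 without 3). It was also lost without P5KO sample 2 (0.0564) or 3 (0.0509), which add to the shared estimate of spread. With Xist above or below 2000 as a covariate, a setting chosen after the data were seen, it was -0.68 (adjusted p = 0.086), with no filter its adjusted p was 0.0665, and without P0WT samples 1 and 2 it was -0.44 (adjusted p = 0.302).

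Slc5a7, the high-affinity choline transporter of cholinergic terminals, read 771, 434 and 593 in P5KO, 736, 561 and 804 in P5WT, 808, 756 and 542 in P0KO, and 1130.1, 1133 and 996 in P0WT. The 3 P0WT samples were the 3 highest of the 12 and the other groups overlapped. The P5 minus P0 difference was -0.27 in knockout (adjusted p = 0.52) and -0.65 ± 0.23 (SE) in wild type (adjusted p = 0.0596), and neither passed. Chat, the synthetic enzyme, lay at percentile 38.2 of mean brightness and read 326, 420.3 and 368 in P5KO, 475, 395 and 428 in P5WT, 396, 399 and 369 in P0KO, and 167, 395 and 457 in P0WT. Apart from P0WT sample 1, the Chat signals of all groups lay within a narrow band. Without the filter its P5 minus P0 difference was -0.06 in knockout, with a 95% interval of -0.80 to 0.68, and 0.44 in wild type (adjusted p = 0.45).

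**Figure D1:**
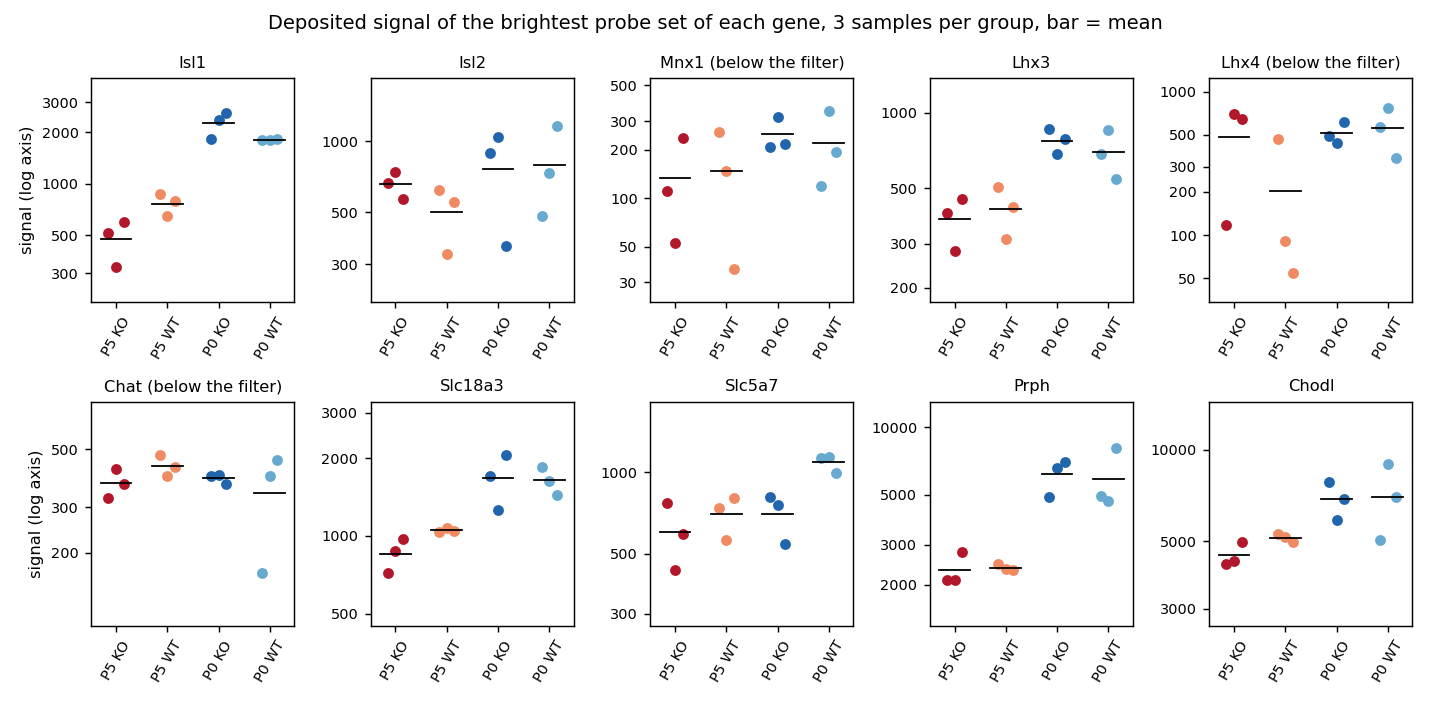
Deposited probe set signal (log axis, arbitrary units) of each of the 10 genes, with a point per sample, a bar at the group mean, and groups from P5KO on the left to P0WT on the right. Isl1, Lhx3, Slc18a3 and Prph show every P5 sample below every P0 sample.

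Prph encodes peripherin, an intermediate filament protein of neurons whose axons leave the central nervous system. It read 2098, 2101 and 2776 in P5KO, 2471, 2344 and 2319.9 in P5WT, 4910.0, 6606 and 6999 in P0KO, and 4924, 4691 and 8080.4 in P0WT. The highest P5 sample lay well below the lowest P0 sample. Between ages Prph differed by -1.41 ± 0.21 (SE) in knockout, 2.65-fold lower (adjusted p = 0.000719), and -1.27 in wild type, 2.41-fold lower (adjusted p = 0.00126). The call held in 20 of 23 settings in knockout and 21 of 23 in wild type, and the exceptions were all among the 3 other Prph probe sets, which are dim. Those lie at percentiles 30.4, 26.5 and 11.1 of mean brightness and disagree: in that order their differences were -0.89, -0.66 and -0.26 in knockout, and 1.02 (adjusted p = 0.168), -1.87 (0.0487) and -1.56 (0.292) in wild type.

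Chodl encodes chondrolectin, a membrane protein of the C-type lectin family that is enriched in fast motor neurons of the mouse. It read 4223, 4323 and 4978 in P5KO, 5279.7, 5173 and 4971 in P5WT, 7846, 5856 and 6903 in P0KO, and 5042, 8964 and 7006 in P0WT. P5KO samples lay below P0KO samples, while the P5WT and P0WT samples overlapped through P0WT sample 1. The difference was -0.61 ± 0.19 (SE) in knockout (adjusted p = 0.0554) and -0.39 in wild type (adjusted p = 0.151), and neither passed. The knockout difference passed in 6 of 20 settings, among them without P0WT sample 1 (adjusted p = 0.0137) or 2 (0.0116). Those fits called 1555 and 1956 of 12600 tested genes in knockout, against 1317 in the main fit. The wild-type difference passed in 2 of 20 settings, without P0WT sample 1 (0.0251) and with array weights (0.0162). There 1348 and 6005 of 12600 tested genes were called in wild type, against 2438 in the main fit.

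**Figure D2:**
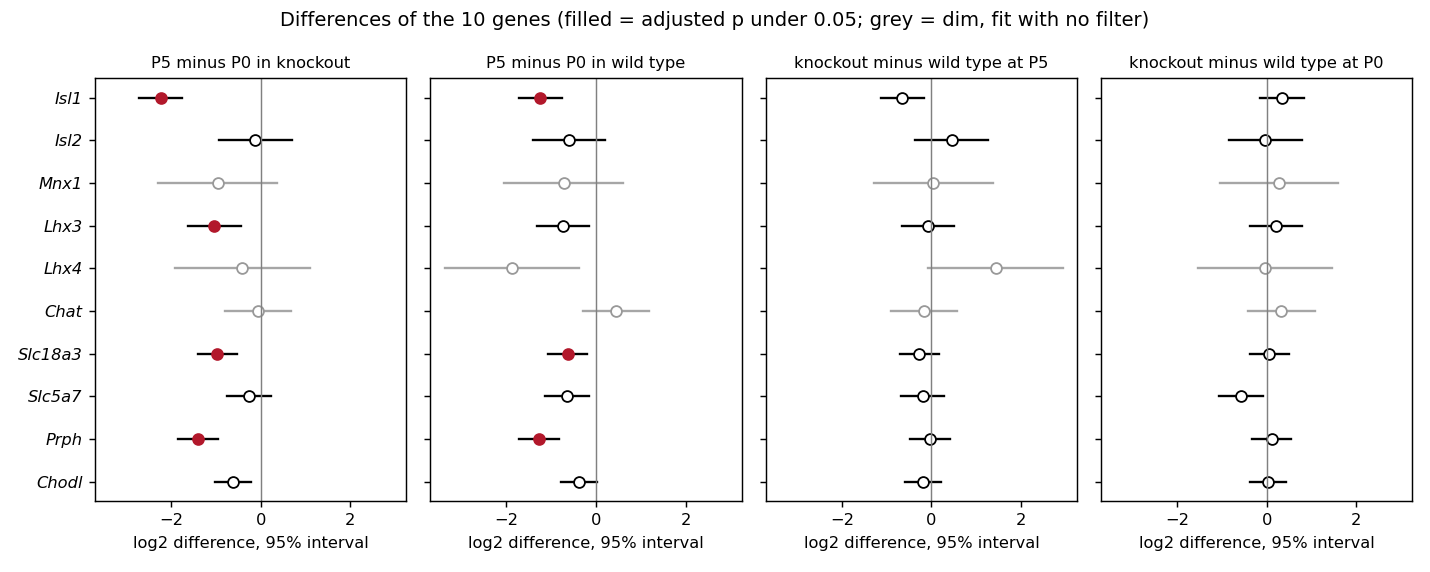
Log2 differences of each gene with 95% intervals (horizontal axis) for P5 minus P0 in each genotype and knockout minus wild type at each age. Filled points passed the threshold, and grey points are dim genes read without the filter. The P5 minus P0 intervals of Isl1 lie below 0 in both genotypes, while no knockout minus wild-type difference passed the threshold.

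The second comparison asked whether loss of NR3B changed these genes at either age. At P5 no gene of the 7 passed by limma, against 0.00794% of all tested genes, and 1 of the 7 had an unadjusted p under 0.05, against 232 of 12600 tested genes. That gene was Isl1, with a knockout minus wild-type difference of -0.65 ± 0.23 (SE), or 1.56-fold lower, a 95% interval of -1.13 to -0.16 and an adjusted p of 1. Its lowest adjusted p over the alternative settings was 0.412. The second Isl1 probe set, whose P5KO and P5WT signals overlapped, differed by -0.084 (adjusted p = 1). By the brightest probe sets, all 3 P5KO samples lay below all 3 P5WT samples for Isl1 and for Slc18a3, which makes 2 of 7 genes, against 5.26% of all tested genes. For Slc18a3 the difference was -0.27 with an interval of -0.71 to 0.17. The other tested genes differed by between -0.20 (Slc5a7) and 0.45 (Isl2), and their intervals included 0.

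At P0 no gene of the 7 passed by limma, against 0.0238% of all tested genes. An unadjusted p under 0.05 was found for 1 of the 7 and for 2034 of 12600 tested genes, which are shares of similar size. That gene was Slc5a7, with a knockout minus wild-type difference of -0.57 ± 0.23 (SE), or 1.49-fold lower, a 95% interval of -1.06 to -0.09 and an adjusted p of 0.29. It was also the 1 gene of the 7 with every P0KO sample below every P0WT sample, as in 3.51% of all tested genes. Averaged over both ages, 0 of the 7 passed, against 0.0238% of all tested genes, and Slc5a7 again had the 1 unadjusted p under 0.05, against 1090 of 12600 tested genes, with a difference of -0.38 (adjusted p = 0.574). The count over all genes at P0 depended on the P0WT samples: without P0WT sample 2 it was 2691 of 12600, with array weights 3083, and averaged over both ages it was 742 without that sample and 2042 with array weights, with 0 of the 7 genes among them in each case. Isl1 was 0.34 at P0 (adjusted p = 0.425), the opposite sign to P5. The other 5 tested genes lay between -0.03 (Isl2) and 0.21 (Lhx3) at P0.

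Among the dim genes, the knockout minus wild-type difference at P5 was 0.04 for Mnx1, 1.44 ± 0.70 (SE) for Lhx4 and -0.17 for Chat, each with an adjusted p of 1. At P0 it was 0.28 for Mnx1 (adjusted p = 0.873), -0.03 for Lhx4 (0.989) and 0.33 for Chat (0.693).

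The interaction, which asks whether the age change differed between genotypes, was past the threshold for 0% of all tested genes and for 0 of the 7, with 1 of the 7 and 628 of all tested genes at an unadjusted p under 0.05. Isl1 had the largest interaction of the 7, at -0.99 ± 0.32 (SE), with a 95% interval of -1.67 to -0.30 and an adjusted p of 0.742. Over 20 alternative settings its adjusted p ranged from 0.0434 to 0.971. Without P0WT sample 2, 210 of all tested genes passed and 0 of the 7. Isl1 passed with array weights (-1.03), under which 1527 genes passed, and with the second Isl1 probe set the interaction was -0.25. The larger Isl1 fall in knockout tissue was therefore not shown to differ from that in wild type. The other 6 tested genes had interactions between -0.33 (Slc18a3) and 0.48 (Isl2).

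**Figure D3:**
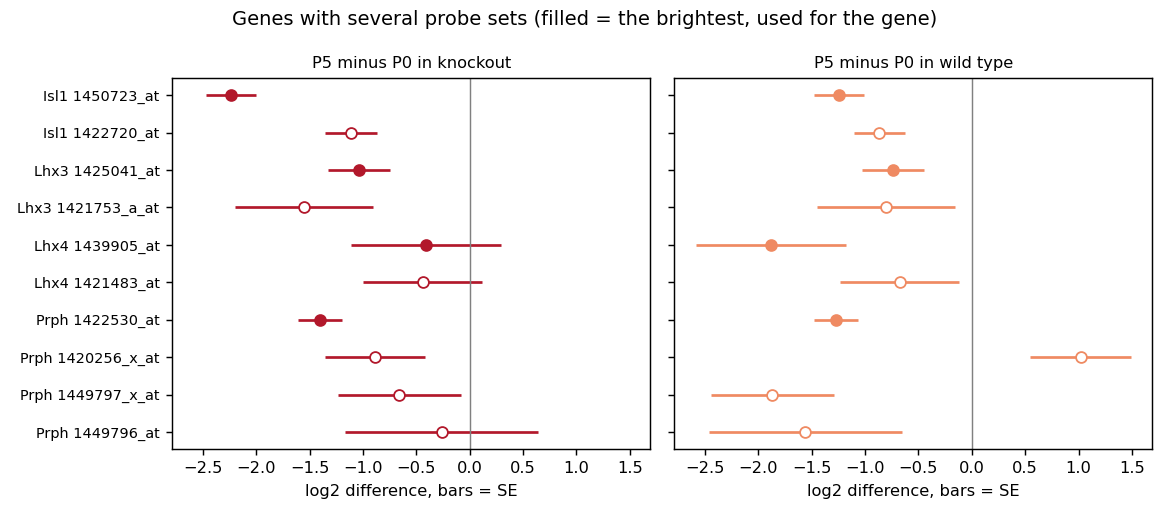
P5 minus P0 log2 difference of each probe set of the genes with several probe sets, with bars for the SE, in knockout on the left and wild type on the right. Filled points are the brightest probe sets. Both Isl1 probe sets lie below 0, while the dim Prph probe sets scatter, with 1 of them above 0 in wild type.

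Related genes were read from 13 lists with 192 entries. The test covered 112 of them, 55 were too dim, and 25 lacked a probe set assigned to their symbol alone. No gene of any list changed between knockout and wild type at P5, at P0 or on average, and 0 had a called interaction. In the list of motor neuron specification and subtype regulators, 16 of 25 genes were tested, of which 3 were higher and 2 lower at P5 in knockout, and 3 were higher and 3 lower in wild type. Pax6, a progenitor factor that is also made by many postnatal neurons, was 4.05-fold higher in knockout and 4.18-fold higher in wild type. Ebf2, a helix-loop-helix factor of differentiating neurons, was 2.05-fold lower in knockout and 2.09-fold lower in wild type. Nkx2-2, which is made by ventral progenitors and oligodendrocyte precursors, differed by 0.81 in knockout and 0.92 in wild type on the log2 scale.

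Among motor neuron trophic, axonal and subtype genes, 24 of 27 were tested, of which 4 were lower at P5 in knockout and 7 in wild type, and 0 were higher in either. Ret, the receptor for the GDNF family, differed by -0.76 in knockout and -0.86 in wild type. Agrn, the nerve-derived organizer of the neuromuscular junction, differed by -0.72 in knockout and -0.86 in wild type. Nefl, the light neurofilament, differed by -0.37 in wild type (adjusted p = 0.0285) and by -0.29 in knockout (0.0981).

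Among genes of acetylcholine breakdown and choline supply, 9 of 10 were tested, of which 2 were higher and 2 lower in knockout, and 1 higher and 1 lower in wild type. Slc44a1, a choline transporter used for membrane lipid synthesis, was 2.15-fold higher at P5 in knockout and 1.91-fold higher in wild type. Pcyt1b, an enzyme of phosphatidylcholine synthesis, differed by -0.46 in knockout and -0.59 in wild type. Of 22 acetylcholine receptor genes, 9 were tested. Chrna3, the ganglionic receptor subunit, was higher at P5 in knockout (0.90, adjusted p = 0.0335), with 0.54 in wild type (0.133). Chrna7, the alpha7 subunit, was lower in wild type (-0.70, adjusted p = 0.012), with -0.51 in knockout (0.0722). Their interactions, 0.36 (adjusted p = 0.768) and 0.19 (0.815), did not pass.

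Position and other cell types were read beside these results. Of 26 Hox genes, which mark hindbrain and spinal cord, 23 were tested, 17 were lower at P5 in knockout and 16 in wild type, and the estimate was below 0 for 23 of 23 in both. The median difference was -1.07 in knockout and -0.90 in wild type. Hoxd10, a lumbar gene, was 3.35-fold lower in knockout and 3.13-fold lower in wild type. The summed signal of the 24 Hox genes with a probe set was 38071 to 44332 in P5KO and 44047 to 44910 in P5WT, against 71330 to 97404 in P0KO and 62321 to 101419 in P0WT. The summed signal of the 10 motor neuron and cholinergic genes was 9942 to 12180 in P5KO and 11074 to 12714 in P5WT, against 19726 to 21429 in P0KO and 16779 to 22058 in P0WT. Both sums were lower in every P5 sample than in every P0 sample, and the part of a different share of hindbrain and spinal cord in the sample was not tested. The brightest genes in the sum of the 10 genes were Chodl and Prph. Their mean signals were 4508 and 2325 in P5KO, 5141 and 2378 in P5WT, 6868 and 6172 in P0KO, and 7004 and 5898 in P0WT. That sum therefore mostly follows these genes, and Chodl was not called in either genotype. In the forebrain list 4 of 12 genes were tested and 0 changed, and its sum was 9231 to 10484 in P5KO, 8792 to 10950 in P5WT, 9115 to 10286 in P0KO and 8259 to 9402 in P0WT.

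Peripheral sensory neurons, which share Isl1 and Prph with motor neurons, had 7 of 13 marker genes tested, of which 2 were lower at P5 in knockout and 3 in wild type. Pou4f1 (Brn3a), a defining factor of sensory ganglia that is also made in some central nuclei, was 2.13-fold lower in knockout and 2.67-fold lower in wild type. Prrxl1 (Drg11), a factor of sensory neurons and the dorsal horn, was 2.15-fold lower in knockout and 2.03-fold lower in wild type. The sum over 10 sensory genes was 9162 to 10616 in P5KO and 9529 to 10308 in P5WT, against 15699 to 17173 in P0KO and 14299 to 22326 in P0WT. The brightest genes in that sum were Ntrk3, Pou4f1 and Prrxl1, with mean signals of 6057, 2801 and 1877. Trpv1, Scn10a and Runx3 were dim, at percentiles 33.2, 19.6 and 11.6. Scn11a, Runx1, Avil and P2rx3 did not change, although the estimate was below 0 for 7 of 7 tested genes in each genotype. The sum moved with Isl1 and Prph, and its part in their differences was not tested.

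**Figure D4:**
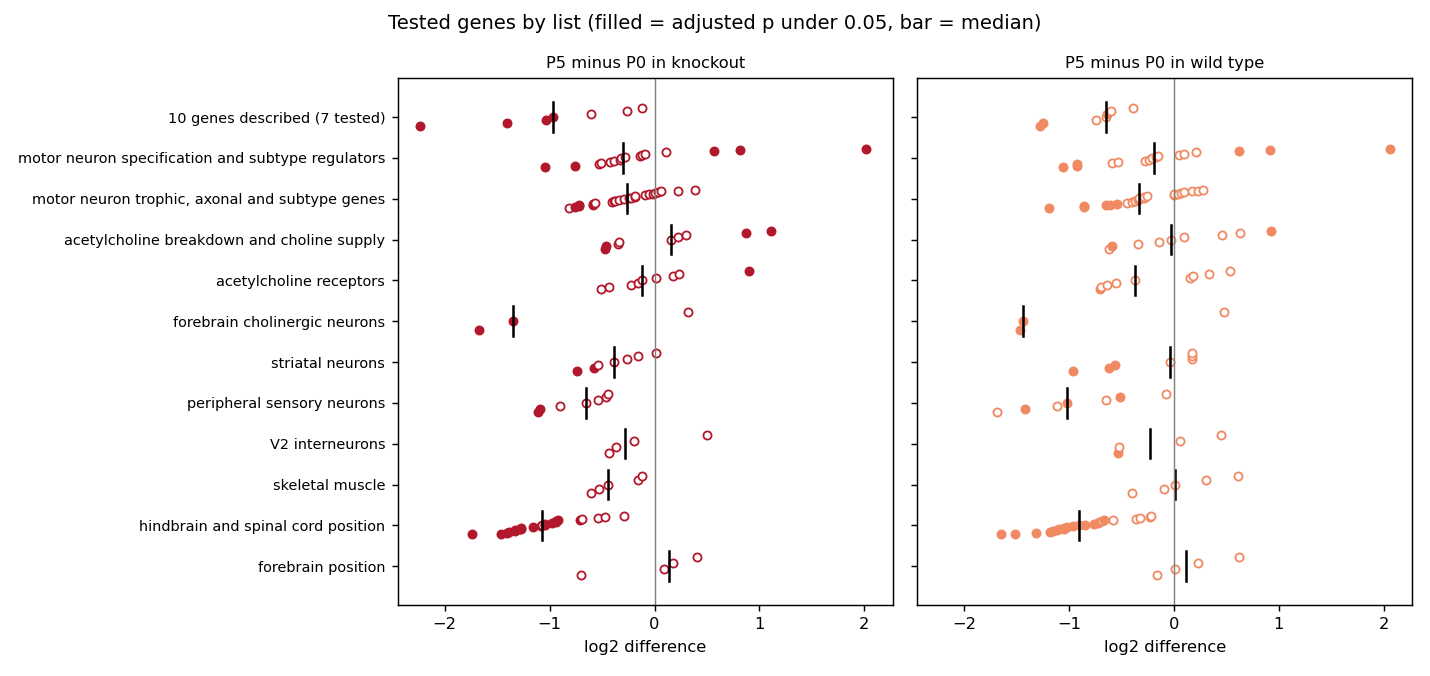
P5 minus P0 log2 differences of the tested genes of each list with several tested genes, with a point per gene (filled where the adjusted p was under 0.05) and a bar at the list median, in knockout on the left and wild type on the right. The Hox genes and the motor neuron and cholinergic genes lie mostly below 0, the forebrain genes around it.

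Other cells that could carry the same genes were read in the same way. Of the forebrain cholinergic list 3 of 8 genes were tested and 2 were lower at P5 in both genotypes, Gbx2 by 3.18-fold in knockout and 2.72-fold in wild type, and Gbx1 by 2.55-fold in knockout and 2.78-fold in wild type. Both are also made in the spinal cord and hindbrain, and Lhx8 and Nkx2-1, the defining factors of forebrain cholinergic neurons, were dim, at percentiles 10.3 and 12.3. Of 10 striatal markers 7 were tested, with 2 lower in knockout and 3 in wild type, among them Bcl11b (-0.74 in knockout and -0.96 in wild type), which also marks cortical and other neurons. Of 9 V2 interneuron markers 4 were tested, with 0 changed in knockout and 1 lower in wild type (Gata2, -0.53, with -0.37 in knockout). Of 13 pituitary markers 1 was tested, Pomc, and it did not change. The other 9 with a probe set lay between percentiles 2.7 and 29.6. The pineal list had 0 of 7 genes tested, and the muscle list had 5 of 10 tested and 0 changed.

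The 3 genes whose log2 levels were most like each tested gene over the 12 samples were found by Pearson's r, as a description without a test. The age groups stand apart in most of these genes, so the r among the 6 P5 and the 6 P0 samples is given beside it. Closest to Isl1 were Nrp2 (r = 0.96 over all, 0.72 at P5 and 0.72 at P0), Hoxd3os1 (0.96, 0.54 and 0.94) and Nrbp2 (0.96, 0.87 and 0.04). Closest to Prph were Prune1 (0.98, 0.80 and 0.74), Tsnax (0.96, 0.64 and 0.91) and Rfxap (0.96, 0.56 and 0.59). Closest to Slc18a3 were Hoxa3 (0.95, 0.65 and 0.85), Jazf1 (0.95, 0.48 and 0.94) and Asb13 (0.95, 0.58 and 0.89). Closest to Lhx3 were Rtbdn (0.96, 0.87 and 0.85), Lamp5 and Pip5kl1. Closest to Chodl were Celf4, Tada3 and Polr3c, to Slc5a7 Mak, Ccdc71l and Spats2l, and to Isl2 Hs3st2, Ccdc137 and Prkag2, with r over all samples between 0.79 (Prkag2) and 0.90 (Mak).

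Among the 7 tested genes themselves, the deviations of samples from their group means were weakly related. The r of deviations over 21 pairs of genes had a median of 0.15 and ran from -0.72 (Isl2 with Slc18a3) to 0.65 (Isl1 with Lhx3). Over all 12 samples Isl1 and Prph had an r of 0.93, with 0.5 for the deviations. The number of arrays, 12, limits the precision of every such value.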

How the data were processed

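The authors deposited probe set signals, a linear intensity. The sources used here do not name the software behind them. The mean of a single array, trimmed of 2% of probe sets at either end, was 2500.01, and the other arrays were not checked in this way. From 45101 probe sets, 64 controls were removed, and by the platform annotation 34945 others had a single symbol, 932 several and 9160 none. Through gene identifiers 34741 single symbols were found in the RefSeq table of GRCm38.p6, and 0 changed.

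Signals were transformed to log2(signal + 16), a scale that compresses changes of dim genes, and quantile-normalized, since array medians spread by 0.27. Probe sets below the 40th percentile of means were left out and the brightest was kept per gene. In R 4.3.3, limma 3.58.1 estimated the 4 group means from the 12 samples together (intensity trend, 8 residual and 5.64 prior degrees of freedom). Genes below the filter were read from the fit without it. The fit was run on simulated data in which a gene had the same spread in every group. The unequal spread of these groups was not covered by that run. The 10 genes, the lists and the tests were chosen with earlier results of these data known. Named list genes are up to 4 changed genes with the smallest adjusted p per list and comparison, and the likeness rule took 3 genes per tested gene. Other list genes given were chosen after their values were seen. Alternatives covered the offset, filter, scaling, array weights, choice of probe set, a replicate block, left-out samples and a sex covariate. The number of arrays limits the precision.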

Additional observations from a re-analysis of the deposited data

How the results depend on the processing

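The numbers of samples do not pair them in the labels. Same-numbered knockout and wild-type samples had correlated deviations of -0.128 to -0.108 at P5 and 0.028 to 0.414 at P0, with 0 of 6 samples at P5 and 4 of 6 at P0 closest to their own number. A replicate block left 4 of the genes lower at P5 in knockout, 3 in wild type and 0 in every other comparison. Between ages it called 1367 of 12600 tested genes in knockout and 2883 in wild type. The P5 minus P0 count was 3 to 5 in knockout and 2 to 5 in wild type over all settings. With array weights it was 5 in both genotypes, but the calls over all tested genes rose as well. They were 2101 in knockout and 6005 in wild type, against 1317 and 2438 in the main fit. Under those weights 1 interaction passed, as did 1527 of all tested genes. The fit without P0WT samples 1 and 2, chosen with earlier results known, assumed that the lone P0WT sample varies like the other groups. The Xist covariate, chosen after seeing the data, left 4 in knockout and 2 in wild type, against 1098 and 1430 of all tested genes. No knockout minus wild-type difference of these genes passed in any setting.

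The only called value to change sign was Prph, P5 minus P0 in wild type, at 1.02 with a dim probe set. All other changes of sign were in differences that never passed, and their cause was not tested. Array weights gave a Prph interaction of 0.18, 0.013 at P5, -0.17 at P0 and -0.079 on average, Chodl -0.029 at P0, Lhx4 0.29 at P0 and Chat -0.032 on average. Without P0WT samples 1 and 2 the Prph interaction was 0.36, with -0.38 at P0 and -0.20 on average, and Chat had 0.027 in the interaction, -0.20 at P0, -0.18 on average and -0.084 for P5 minus P0 in wild type. In the same fit Isl2 was -0.092 on average and Lhx4 0.58 at P0. The Xist covariate gave a Prph interaction of 0.001 and 0.11 at P5. Mnx1 at P5 was -0.002 with an offset of 64 and -0.036 with the deposited scaling. With other probe sets, Prph gave interactions of 1.299 and 1.21, 0.35 and 0.72 at P5, -0.95 and -0.49 at P0 and -0.30 on average, Isl1 0.039 on average, Lhx3 0.13 at P5, and Lhx4 -0.30 at P5 and -0.42 on average.

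Leaving out a sample at a time gave these ranges across 0. For knockout minus wild type at P5 they were -0.27 to 0.10 for Lhx3, -0.61 to 0.56 for Mnx1 and -0.17 to 0.057 for Prph. At P0 they were -0.11 to 0.59 for Chat, -0.20 to 0.25 for Chodl, -0.35 to 0.36 for Isl2, -0.34 to 0.25 for Lhx4, -0.083 to 0.65 for Mnx1, -0.017 to 0.35 for Prph and -0.14 to 0.25 for Slc18a3. On average they were -0.14 to 0.21 for Chat, -0.19 to 0.033 for Chodl, -0.029 to 0.16 for Lhx3, -0.17 to 0.42 for Mnx1 and -0.032 to 0.16 for Prph. For P5 minus P0 in knockout they were -0.15 to 0.031 for Chat, -0.51 to 0.15 for Isl2 and -0.84 to 0.38 for Lhx4. For the interaction they were -0.43 to 0.01 for Chodl and -0.89 to 0.29 for Mnx1.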

Other observations

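Several skeletal muscle genes, chosen here after their values were seen, stood apart in 1 sample. P5WT sample 3 had a summed signal of 12136 over 10 muscle genes, against 4374 to 5940 in P5KO, 4940 and 4884 in the other P5WT samples, 6015 to 6884 in P0KO and 5575 to 6172 in P0WT. Mylpf, a myosin light chain of fast muscle, read 2386 in that sample, against 431, 493 and 482 in P5KO and 539.8 and 532 in the other P5WT samples. Acta1, skeletal actin, read 4515 there, against 1614, 1699.9 and 2320.1 in P5KO and 1366 and 1717 in the other P5WT samples. Leaving out P5WT sample 3 did not change the calls of Isl1 or Prph. The P5 minus P0 difference of Slc18a3 in wild type was then -0.642 (adjusted p = 0.0989), against -0.637 with all samples. That call was equally lost without P5WT sample 1 (0.115) or 2 (0.0997), so its loss was not particular to sample 3. Myl1 and Tnnt3 were likewise highest of the 12 in that sample, at 1659 and 1071, as were Tnni2 and Myh8, at 604 and 502. The other 4 genes were not: Ckm, the muscle creatine kinase, read 374, Actn3 851, and Myh3, the embryonic myosin, 125, its lowest of the 12. Myog, a regulator of muscle differentiation, read 48.0 in that sample and 303 in P5WT sample 1.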
